A study of Mus musculus with 8 samples.

Results

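Nearly all mitochondrial proteins are made in the cytosol and carried into the organelle by translocases. The genes described here encode that import machinery and the proteins that shape the folds of the inner membrane, the cristae. They were chosen by name, as the protein-coding genes with a Timm or Tomm symbol followed by a number together with Immt, Chchd3, Chchd4, Chchd6, Chchd10, Apool, Phb, Phb2, Samm50, Grpel1, Pmpca and Pmpcb. This gave 37 genes of the 36047 with a value, of which 22028 were protein-coding, and the rule used no measured value.

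RNA was measured in muscle stem cells (MuSCs), the Pax7-expressing cells that rebuild skeletal muscle, of 3 mice fed a vitamin A-free (VA-free) diet and 2 mice fed control chow for 8 weeks. All 5 were Pax7-nTnG males (Pax7-CreERT2 with Rosa26-nTnG) of 5 to 6 months, in which tamoxifen, given to both diets, lets a Cre under the Pax7 promoter switch nuclei to GFP, so the label records that Pax7 was on when tamoxifen was given. GFP-positive cells were sorted from the gastrocnemius and quadriceps, and before the column step the RNA of each mouse was divided in technical replicates, lettered A and B. The libraries (control 1A, 1B, 2A and 2B; VA-free 1B, 2A, 3A and 3B) numbered 8 and held between 44831232 and 88650428 estimated counts each, of tagmented full-length cDNA that carries no strand.

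At the outer membrane, the TOM complex takes in nearly every precursor. Proteins with a presequence then cross the inner membrane through the TIM23 complex and its motor and are trimmed by a peptidase, while small TIM chaperones escort membrane carriers across the space between the membranes to the TIM22 complex. The SAM and MIA machineries place barrel proteins in the outer membrane and oxidize cysteine-rich proteins between the membranes, and the MICOS complex holds the necks of the cristae.

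The small TIM chaperones held 3 members that were lower and 3 that did not pass the test, so a stretch of each is shown. They share pairs of cysteines that form disulfide bonds, and the stretch below runs from the first to the last of these cysteines in the coding sequence of the Ensembl 96 transcript, 5′ to 3′, with the 4 cysteine codons in capitals.
Timm8b: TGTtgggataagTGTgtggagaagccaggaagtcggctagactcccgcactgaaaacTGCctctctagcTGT
Timm13: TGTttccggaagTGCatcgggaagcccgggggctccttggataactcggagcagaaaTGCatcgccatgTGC
Timm10b: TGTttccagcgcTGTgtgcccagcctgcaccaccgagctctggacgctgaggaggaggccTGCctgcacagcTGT
Timm8a1: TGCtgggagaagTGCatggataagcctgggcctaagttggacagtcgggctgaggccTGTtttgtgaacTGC
Timm9: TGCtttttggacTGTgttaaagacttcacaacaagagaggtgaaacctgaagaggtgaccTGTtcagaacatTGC
Timm10: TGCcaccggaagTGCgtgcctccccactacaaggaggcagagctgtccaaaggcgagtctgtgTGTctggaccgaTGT
On GRCm38 the stretch of Timm8b lies at chr9:50604954-50605025 in exon 2 on the plus strand and that of Timm10 at chr2:84829803-84829880 in exon 3 on the plus strand. The others span an intron, those of Timm13 (chr10:80900242-80900535, exons 2 to 3), Timm8a1 (chrX:134538202-134541462, exons 1 to 2) and Timm9 (chr12:71123666-71125515, exons 3 to 4) on the minus strand and that of Timm10b (chr7:105640804-105641048, exons 2 to 3) on the plus strand. Between the inner cysteines lie 14 codons in Timm8b, Timm13 and Timm8a1, 15 in Timm10b and Timm9, and 16 in Timm10. The whole coding sequences are short, from 83 codons in Timm8b to 100 in Timm10b. The first 3 of the 6 genes listed were lower on the VA-free diet and the last 3 did not pass the test, as described below.

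Levels are CPM, counts scaled to library size with TMM factors, in the library order named above. A log2 fold change is that of VA-free over control and stands ± its standard error. They were tested over the 5 mice with edgeR's quasi-likelihood test and Benjamini-Hochberg adjustment over all 17997 genes that passed its expression filter, at a threshold of 0.05, and every adjusted p below is from this test. Since there were 2 control mice, their spread is a single difference.

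Of the 37 members, 35 could be tested, and 20 were lower and 3 higher on the VA-free diet while 12 did not pass the threshold. Over all genes tested, 22.5% were lower, 18.9% were higher and 41.4% passed in either direction. The median log2 fold change was -0.45 over the members and 0.00 over all genes, with 29 members below 0 and 6 above it. In 10 members the log2 fold change was past the threshold and at or below -1, against 14.3% of all genes, and no member rose as far. Other scalings gave other splits, 6 lower and 6 higher with the trend with gene length removed, and 13 lower and 7 higher with TPM, as described below. Of the same 17997 genes, 2374 were lower and 4071 higher with the trend removed. With TPM, tested over genes with a TPM of at least 1 in 2 mice, 2392 were lower and 5866 higher. In both fits higher calls thus outnumbered lower calls over all genes. No mouse of one diet lay among those of the other for 27 members, 23 of them lower on the VA-free diet, against 63.3% and 32.3% of all genes. The libraries did not overlap for 23 members, 20 of them lower, against 41.3% and 21.5%. By role, the members past the threshold lay in the TOM complex (5 lower and 1 higher of 9), the TIM22 complex and small TIMs (4 lower and 1 higher of 8), the TIM23 complex and motor (6 lower and 1 higher of 7) and the cristae proteins (5 lower of 7), and none of the 2 SAM and MIA genes or the 2 peptidase genes passed.

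**Figure D1:**
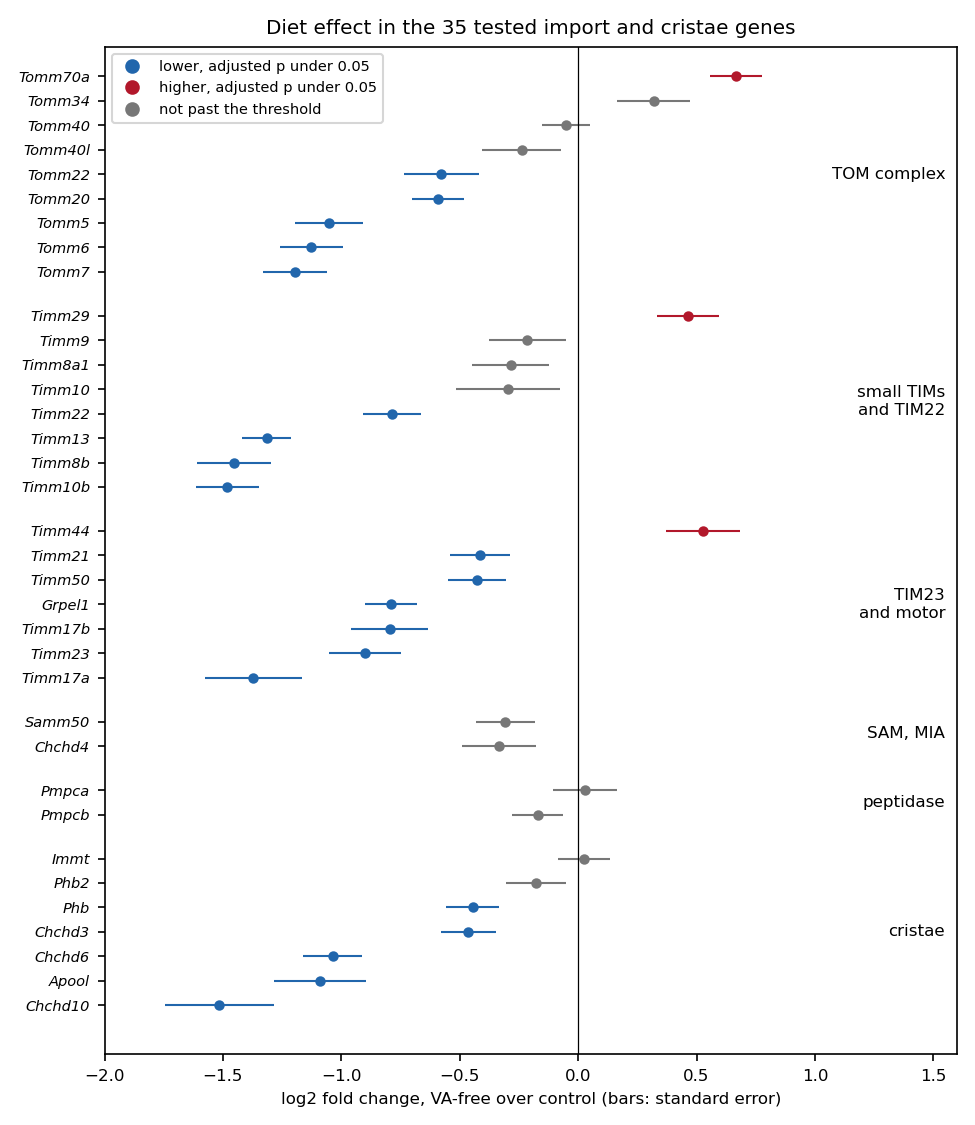
Log2 fold change (x axis, VA-free over control, edgeR on 5 mice) of the 35 tested members, grouped by role, with bars for the standard error and colours for the adjusted p. Most points lie left of 0, from Chchd10 at -1.52, while Tomm70a (0.67), Timm44 (0.53) and Timm29 (0.46) lie to the right.

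Facts about the libraries bear on every value here. The A and B libraries of 1 mouse differed over the 35 members by a root mean square of 0.12 on the log2 scale in VA-free mouse 3 and 0.26 in control mouse 1, but by 0.79 in control mouse 2, where 8 members differed by more than 1 and 26 were higher in 2A. In the full table, 9 of 10 MuSC markers were higher on the VA-free diet, with a summed level of 6108 to 7140.4 CPM per library against 2392 to 4334 CPM in the control libraries. Markers of several other cell types were lower, here also with their summed levels per library, among them all 8 endothelial (230 to 299.98 against 1318 to 2770 CPM), all 6 Schwann (32.6 to 42.3 against 259 to 588 CPM), 4 of 5 tenocyte (38.3 to 62.3 against 591 to 1065 CPM) and 5 of 10 myofiber genes (334 to 428 against 481 to 611 CPM). Of the lists for fibro-adipogenic progenitors, pericytes and smooth muscle, and macrophages, 4 of 7, 4 of 6 and 3 of 6 genes were lower and 1 of the progenitor genes was higher. Their summed levels per library were 11578 to 12640 against 3684 to 9515 CPM, 838 to 1106 against 2639 to 3186 CPM, and 22.0 to 114 against 163 to 823 CPM. The progenitor sum was mostly Col3a1, the gene that was higher, at 10352 to 11619 CPM against 1024 to 6433 CPM, while Pdgfra, Dcn, Lum and Ly6a were lower. Of all these markers, Cdh19 of the Schwann list was the only one at 0 in a library, VA-free 1B. In bulk RNA, fewer cells of a type and less RNA per cell cannot be told apart, and the part of these markers in the values of the import genes was not tested.

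The small TIMs form chaperone rings in the intermembrane space. Of the 7 members, 6 could be tested, 3 were lower and 3 did not pass, and of the latter Timm9 was higher when the length trend was removed. Timm8b (chr9:50603910-50605320), a partner of Timm13, was at 13.4, 13.8, 13.7 and 13.7 CPM in the VA-free libraries and 43.6, 38.9, 41.5 and 27.3 CPM in the control libraries. The VA-free libraries lay within a narrow range, and even the lowest control library, 2B, was above all of them. Over mice it was at 13.8 ± 0.129 CPM (SD, n = 3 mice) against 37.8 ± 7.04 CPM (SD, n = 2 mice), a log2 fold change of -1.45 ± 0.16 (edgeR adjusted p = 0.000686). Timm13 (chr10:80899450-80900969) was at 34.2, 33.5, 34.3 and 32.9 CPM on the VA-free diet and 90.8, 74.6, 119 and 58.6 CPM on the control diet, and the diets did not overlap. It was at 34.2 ± 0.739 CPM (SD, n = 3 mice) against 85.2 ± 1.30 CPM (SD, n = 2 mice), with a log2 fold change of -1.32 ± 0.10 and the smallest adjusted p of the members (edgeR, 0.00031). The SD over the control mice does not show the gap between control 2A (119 CPM) and 2B (58.6 CPM). Timm10b (chr7:105640056-105643637), which sits on the TIM22 complex, was at 15.2, 13.5, 14.0 and 13.7 CPM against 41.9, 37.9, 56.5 and 25.8 CPM, again without overlap. Its log2 fold change was -1.48 ± 0.13 (edgeR adjusted p = 0.000422). The annotation places the protein-coding gene Gm45799 over Timm10b on the same strand and Arfip2 on the other strand, and 17.3% of the 31-base words of Timm10b transcripts occur in other genes. Gm45799 held 130.5 to 671 counts and Arfip2 761 to 3143.5 counts per library, against 637 to 2718 for Timm10b. How reads from the shared words were split is uncertain.

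In contrast, Timm9 and Timm10, which pair in the main chaperone ring, had log2 fold changes of -0.21 ± 0.16 and -0.30 ± 0.22 that did not pass the test (edgeR adjusted p = 0.338 and 0.329). Timm9 was at 19.8, 17.4, 17.8 and 18.1 CPM against 18.7, 28.3, 18.8 and 21.1 CPM, and the control libraries 1A and 2A lay among the VA-free libraries. Timm8a1, the X-linked relative of Timm8b, was at -0.28 ± 0.16 (edgeR adjusted p = 0.211), and 41.8% of its 31-base words are shared with its copy Gm9797, which held 348 to 690 counts per library, so how the counts were split between them is uncertain. The ratio of Timm8a1 to Timm8b in TPM, a level per transcript length, was 0.68 to 0.81 in the VA-free libraries and 0.25 to 0.48 in the control libraries. This ratio does not depend on the scaling between libraries, and the diets did not overlap in it. The mean transcript lengths of the pair differ, at 1421 bases for Timm8a1 and 518 bases for Timm8b. Timm8a2 had 0 to 12 counts in a library and was not tested.

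The carrier translocase itself held 2 more members, and over the whole group of 8 tested genes the split of 4 lower and 1 higher was 3 and 1 with the length trend removed and 4 and 1 with TPM. Timm22 (chr11:76406952-76416292), its channel, was at 32.0, 27.9, 30.5 and 30.5 CPM against 55.1, 48.2, 66.3 and 42.2 CPM, and no VA-free library reached a control library. It was at 30.5 ± 2.41 CPM (SD, n = 3 mice) against 52.7 ± 1.31 CPM (SD, n = 2 mice), a log2 fold change of -0.79 ± 0.12 (edgeR adjusted p = 0.00258). Timm29, a subunit of the same complex, went the other way at 0.46 ± 0.13 (edgeR adjusted p = 0.0278), with 64.9 to 74.7 CPM in the VA-free and 42.6 to 57.5 CPM in the control libraries, and it lost the call in 5 of the 11 fits that left out a mouse or a library. Summed over the 9 genes of this role, the TPM was 435 to 506 in the VA-free and 559 to 735 in the control libraries.

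**Figure D2:**
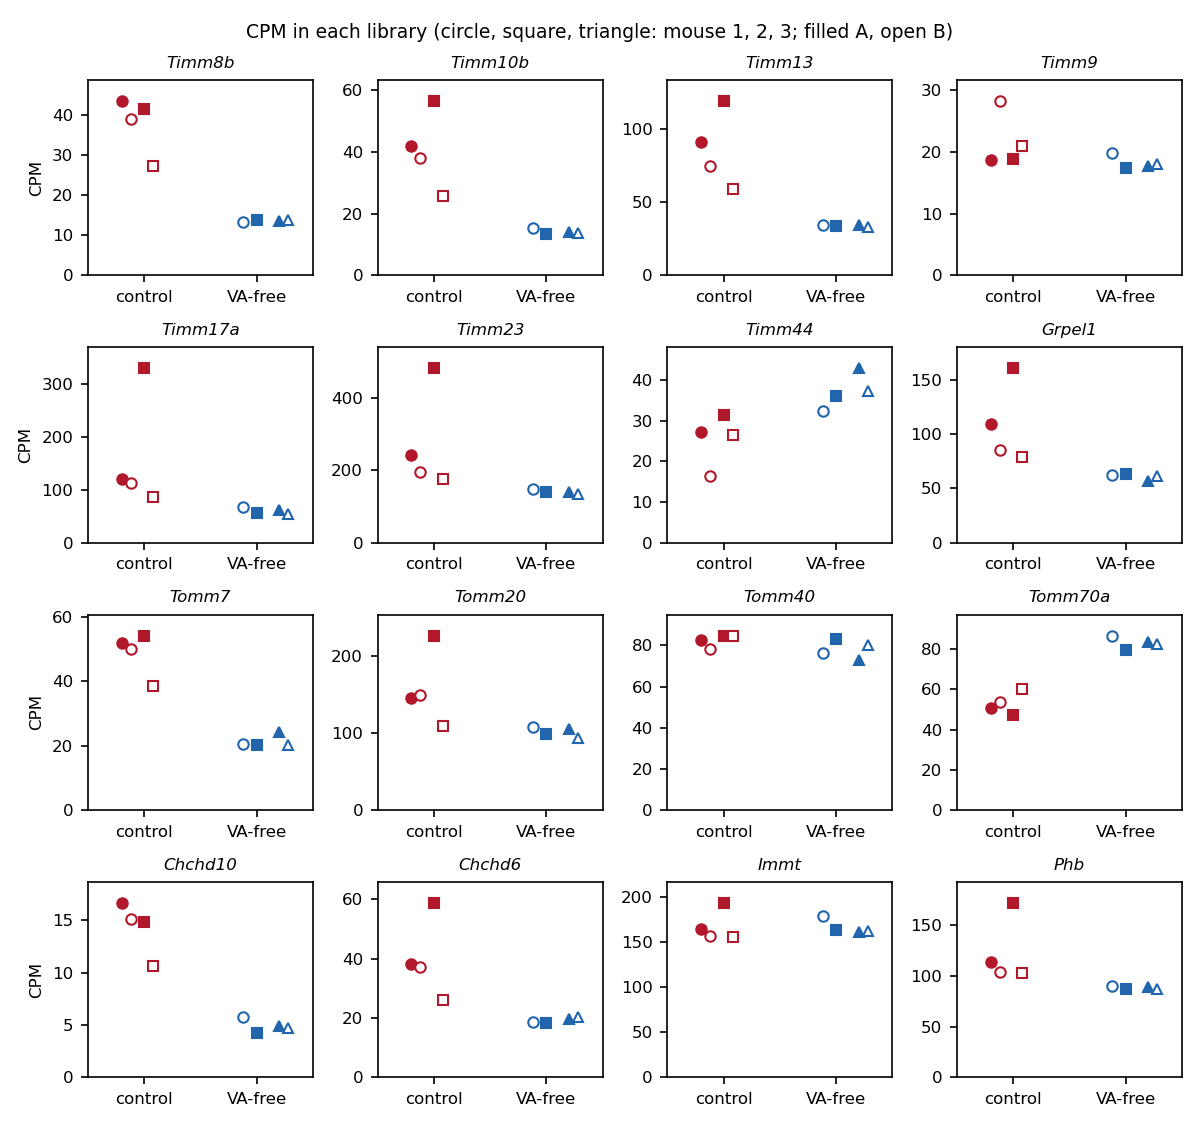
TMM-scaled CPM (y axes, each from 0) of 16 members in each of the 8 libraries, by diet (x axis), with symbols for the mouse and filling for technical replicate A or B. Timm8b, Timm10b and Timm13 show separate diets, Timm9, Tomm40 and Immt overlap, and control 2A (filled red square) stands at 329 CPM for Timm17a and 482 CPM for Timm23.

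Of the TIM23 complex, which moves presequence proteins across or into the inner membrane, and its motor, 6 of 7 members were lower and 1 was higher. This split depended on the scaling, with 1 lower and 2 higher when the length trend was removed and 2 lower and 1 higher with TPM. Timm17a (chr1:135295213-135313778), a channel subunit, was at 66.5, 56.6, 61.8 and 53.5 CPM in the VA-free libraries and 120.1, 113, 329 and 86.9 CPM in the control libraries. The diets did not overlap, but control 2A was far above its partner library 2B from the same mouse. It was at 61.0 ± 6.17 CPM (SD, n = 3 mice) against 158 ± 52.1 CPM (SD, n = 2 mice), a log2 fold change of -1.37 ± 0.21 (edgeR adjusted p = 0.00225), which was -0.77 without control 2A and stayed past the threshold. Timm17b (chrX:7899357-7908351), its paralog, was at 19.8, 26.4, 23.5 and 21.6 CPM against 41.9, 42.9, 42.4 and 33.6 CPM. Here control 2A stood with the libraries of the other control mouse, the diets did not overlap, and the log2 fold change was -0.80 ± 0.16 (edgeR adjusted p = 0.00802). The TPM of Timm17a over that of Timm17b was 2.24 to 3.36 on the VA-free diet and 2.80 to 7.86 on the control diet, and these ranges overlap. In each library 65.0% to 72.7% of the TPM of Timm17a was assigned to Timm17a-204, annotated as a retained intron.

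Timm23 (chr14:32180162-32201898), the namesake channel, had the highest TPM of the members on both diets (library median 236 on the VA-free and 278 on the control diet). It was at 149, 139.6, 139.7 and 135 CPM against 243, 195, 482 and 175 CPM, so the VA-free libraries lay close together below all control libraries. Its log2 fold change was -0.90 ± 0.15 (edgeR adjusted p = 0.00356), and -0.49 without control 2A, still past the threshold. Of the 31-base words in its transcripts, 59.4% also occur in other genes, mainly the copy Gm10273, to which at most 293 counts were assigned. Timm50, the receptor that hands precursors to the channel, and Timm21, which couples it to the TOM complex, were at -0.43 ± 0.12 and -0.41 ± 0.13 (edgeR adjusted p = 0.0277 and 0.0386). Without control 2A these were -0.21 and -0.25, without 2B -0.71 and -0.65, and neither passed in either case. The libraries of Timm21 overlapped between the diets.

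The motor, which pulls the precursor into the matrix, moved in both directions. Grpel1 (chr5:36464998-36474080), the nucleotide exchange factor of the mitochondrial Hsp70, was at 62.2, 62.8, 56.4 and 61.5 CPM against 109.5, 84.8, 160.3 and 79.0 CPM and did not overlap between the diets. It was at 62.1 ± 2.04 CPM (SD, n = 3 mice) against 107 ± 8.57 CPM (SD, n = 2 mice), a log2 fold change of -0.79 ± 0.11 (edgeR adjusted p = 0.00159). Of the 31-base words of Grpel1, 10.9% occur in Tada2b on the opposite strand, which held 898 to 2991 counts per library. Timm44 (chr8:4259731-4275913), which tethers that Hsp70 to the channel, was at 32.3, 36.2, 42.9 and 37.4 CPM against 27.2, 16.4, 31.4 and 26.4 CPM. All VA-free libraries were above all control libraries, though VA-free 1B and control 2A nearly met. The log2 fold change of Timm44 was 0.53 ± 0.15 (edgeR adjusted p = 0.0315), and it did not pass in 6 of the 11 fits that left out a mouse or a library, over which it ranged from 0.39 to 0.71.

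In the TOM complex, 5 of the 9 tested genes were lower and 1 was higher, against 1 and 2 with the length trend removed and 4 and 3 with TPM. The small subunits that steady the complex fell most. Tomm7 (chr5:23838944-23844161) was at 20.6, 20.1, 24.3 and 20.2 CPM against 52.0, 50.1, 54.1 and 38.5 CPM, and every control library was above every VA-free library. It was at 21.2 ± 1.13 CPM (SD, n = 3 mice) against 48.6 ± 6.0 CPM (SD, n = 2 mice), a log2 fold change of -1.19 ± 0.13 (edgeR adjusted p = 0.000794). Tomm6 (chr17:47686646-47688386) was at 39.1, 36.6, 37.6 and 34.0 CPM against 94.3, 81.2, 90.8 and 62.0 CPM, with no overlap and a log2 fold change of -1.13 ± 0.13 (edgeR adjusted p = 0.000926). The annotated gene Gm21981 reads through Tomm6 on the same strand and shares 71.8% of its 31-base words, but at most 23.6 counts were assigned to it in a library. For Tomm5 (chr4:45105208-45108114) the values were 24.9, 19.9, 24.1 and 21.3 CPM and 52.6, 41.4, 61.6 and 34.1 CPM, also without overlap, and the log2 fold change was -1.05 ± 0.14 (edgeR adjusted p = 0.00162).

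The receptors did not move together, and the log2 fold changes of Tomm20 and Tomm22 were 0.17 and 0.24, not past the threshold, when the length trend was removed. Tomm20 (chr8:126930667-126945844), which binds presequences, was at 108, 98.7, 105 and 93.4 CPM against 145, 149, 226 and 109 CPM. Control 2A stood above the other control libraries and control 2B lay only just above VA-free 1B. Its log2 fold change was -0.59 ± 0.11 (edgeR adjusted p = 0.00529), -0.90 without control 2B, and -0.34 and no longer past the threshold without control 2A. Tomm22 (chr15:79670861-79673400), the central receptor, was at 45.2, 42.6, 43.8 and 38.8 CPM against 69.4, 77.1, 51.7 and 60.7 CPM, with control 2A the lowest control library. It was at -0.58 ± 0.16 (edgeR adjusted p = 0.0243), and at -0.33 and not past the threshold without control mouse 1. Tomm70a (chr16:57121703-57156705), the receptor for carrier precursors, was at 86.7, 79.5, 83.4 and 82.6 CPM against 50.7, 53.7, 47.3 and 60.0 CPM. Each VA-free library was above each control library. It was at 84.1 ± 4.5 CPM (SD, n = 3 mice) against 53.0 ± 1.18 CPM (SD, n = 2 mice), a log2 fold change of 0.67 ± 0.11 (edgeR adjusted p = 0.0033), and was past the threshold in all 11 fits without a mouse or a library but not with the length trend removed.

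Tomm40, the channel of the outer membrane, which was higher with TPM and with the length trend removed, was at 76.2, 83.1, 72.7 and 80.4 CPM against 82.6, 78.2, 84.8 and 84.4 CPM, and the diets overlapped. Its log2 fold change of -0.05 ± 0.10 did not pass (edgeR adjusted p = 0.73). Tomm40l, its paralog, was at -0.24 ± 0.17 and Tomm34, a cytosolic co-chaperone, at 0.32 ± 0.15 (edgeR adjusted p = 0.299 and 0.142). Tomm40l lies over Nr1i3 on the opposite strand and shares 59.6% of its 31-base words with it, and without strand the reads of such a pair cannot be told apart. At most 12.1 counts in a library were assigned to Nr1i3, against 678 to 1829 to Tomm40l. Tomm20l, a paralog of Tomm20, had at most 9 counts in a library and was not tested. The TPM summed over the 10 TOM genes was 649 to 721 on the VA-free and 731 to 878 on the control diet.

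Neither SAM and MIA nor the processing peptidase had a member past the threshold, but with TPM Pmpca was higher. Samm50, which assembles barrel proteins in the outer membrane, was at -0.31 ± 0.12, and Chchd4, the oxidoreductase of the MIA pathway, at -0.33 ± 0.16 (edgeR adjusted p = 0.0908 and 0.133). In both genes the mice were apart by diet but the libraries overlapped. Of the TPM of Samm50, 63.2% to 73.75% was assigned to Samm50-205, annotated as a retained intron. Chchd4 differed within control mouse 2, at 70.9 CPM in 2A and 27.1 CPM in 2B, and its log2 fold change was 0.05 without 2A and -0.74 without 2B. Chchd4 and Samm50 passed the test as lower when library 1B of control mouse 1 was left out. Samm50 also passed as lower in an edgeR fit with an offset for effective length (-0.45, adjusted p = 0.0205 in that fit). The peptidase subunits Pmpca and Pmpcb were at 0.03 ± 0.14 and -0.17 ± 0.11 (edgeR adjusted p = 0.888 and 0.251), with Pmpca at 176 CPM in library 2A of control mouse 2 and 91.1 CPM in 2B. Their summed TPM was 143 to 160 on the VA-free and 106 to 126 on the control diet, so on the scale per length the libraries were apart with the VA-free diet higher. With log2(TPM + 1), however, the median log2 fold change of all genes was 0.35. Relative to that median, Pmpca was at 0.17 and Pmpcb at -0.081. Of the 31-base words of Pmpca, 19.5% occur in Inpp5e on the opposite strand, which held 1035.5 to 3604 counts per library.

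Of the 7 cristae members, 5 were lower and none was higher, against 1 and 1 with the length trend removed and 3 and 1 with TPM. Chchd10 (chr10:75933130-75937747), a cysteine-rich protein of the intermembrane space that has been placed at the cristae, had the largest fall of all members in the comparison of counts, while Timm10b was lowest with TPM and Grpel1 with the length trend removed. It was at 5.76, 4.26, 4.89 and 4.75 CPM in the VA-free libraries and 16.6, 15.1, 14.9 and 10.7 CPM in the control libraries, without overlap. Over mice it was at 5.01 ± 0.819 CPM (SD, n = 3 mice) against 14.4 ± 3.01 CPM (SD, n = 2 mice), a log2 fold change of -1.52 ± 0.23 (edgeR adjusted p = 0.00239). The gene overlaps Mmp11 on the opposite strand, and 8.24% of its 31-base words are shared with that gene. Mmp11 held 721 to 1377 counts in the VA-free and 124 to 1036.5 counts in the control libraries. Chchd10 held 222 to 540 and 575 to 838 counts. Without strand, reads from the shared words cannot be told apart.

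Of the MICOS subunits, Chchd6 (chr6:89383146-89595652) was at 18.7, 18.2, 19.8 and 20.5 CPM against 38.0, 37.3, 58.7 and 26.2 CPM. No library of one diet lay among those of the other, and the log2 fold change was -1.04 ± 0.13 (edgeR adjusted p = 0.00102). Apool (chrX:112311334-112372755), a subunit that binds cardiolipin, was at 8.70, 8.56, 8.28 and 7.43 CPM against 14.7, 14.5, 27.8 and 16.1 CPM. Control 2A was the highest library by far, and the remaining control libraries were still above all VA-free libraries. Its log2 fold change was -1.09 ± 0.19 (edgeR adjusted p = 0.00454). Chchd3, a further subunit, was at -0.46 ± 0.12 (edgeR adjusted p = 0.0177), with 40.8 to 47.8 CPM against 57.5 to 73.5 CPM, and lost the call in 3 of those fits.

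Immt, the core subunit of MICOS, had a log2 fold change of 0.03 ± 0.11 (edgeR adjusted p = 0.878), with 179, 164, 161 and 163 CPM against 165, 157, 194 and 156 CPM and the diets mixed. Its transcripts did not keep the same shares. The transcript Immt-204 of 885 bases held 3.05% to 11.4% of the TPM of Immt in the VA-free libraries and 21.7% to 31.3% in the control libraries. The longer Immt-203 (2518 bases) held 40.3% to 46.7% against 27.6% to 34.8%, and Immt-201 (2728 bases) 31.7% to 36.0% against 23.8% to 29.6%. These are the 3 transcripts of Immt with the highest share in any library. Their shares are estimates by kallisto from 75-base reads that several transcripts share, and they were not tested. The diets did not overlap in any of the 3, but shares within a gene depend on each other. Immt was not alone in this. A retained-intron transcript of Chchd4 held 32.0% to 35.5% of the gene's TPM on the VA-free and 12.5% to 24.6% on the control diet. For a retained-intron transcript of Timm50 the shares were 16.3% to 20.8% and 4.77% to 8.83%. How many other members did so was not counted.

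**Figure D3:**
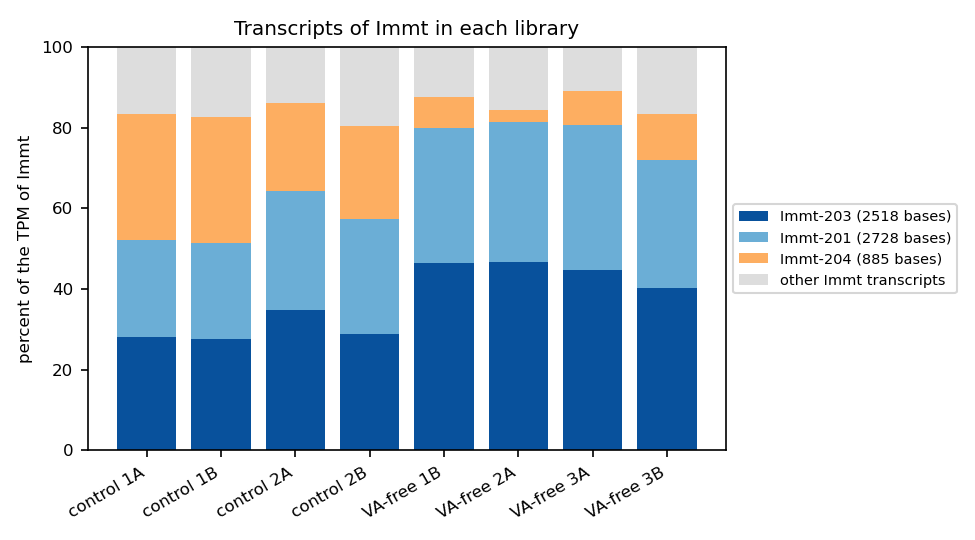
Share of the TPM of Immt (y axis, percent) that was assigned to 3 of its transcripts and to all others, in each library (x axis). The share of Immt-204 (885 bases, orange) is 21.7% to 31.3% in the 4 control libraries and 3.05% to 11.4% in the 4 VA-free libraries.

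The prohibitins form ring-shaped scaffolds in the inner membrane from both Phb and Phb2. Phb was at 89.8, 87.4, 88.9 and 87.3 CPM against 114, 104, 172 and 103 CPM, with a log2 fold change of -0.45 ± 0.11 (edgeR adjusted p = 0.0184). Without control 2A, which stands above the other control libraries, this was -0.27 and did not pass, and without 2B it was -0.69 and did not pass either. The copy Gm7666 shares 27.3% of the 31-base words of Phb and held 748 to 3107 counts per library, so the count of Phb is uncertain by how reads were split. Phb2 was at -0.18 ± 0.13 (edgeR adjusted p = 0.304). Its libraries overlapped between the diets. The TPM summed over the 7 cristae genes was 522 to 578 on the VA-free and 508 to 566 on the control diet.

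The lower members had a shorter mean transcript length than the others. The mean transcript length, weighted by TPM, had a median of 947 bases over the 20 lower members, 1747 bases over the 12 that did not pass and 3170 bases over the 3 higher members, against 2122 bases over all genes tested. Across the 35 members the Spearman correlation of length with the log2 fold change was 0.73, and across all 17997 genes it was 0.38. These are correlations across genes measured in the same 5 mice, and genes are not independent replicates. Among genes under 700 bases, the median log2 fold change was -1.38 over 6 members and -0.59 over all 1295 genes. From 700 to 1000 bases it was -0.69 over 6 members and -0.81 over 1436 genes, and from 1000 to 1500 bases -0.59 over 11 members and -0.48 over 2797 genes. From 1500 to 2500 bases it was -0.17 over 7 members and -0.05 over 5266 genes, and above that 0.03 over 5 members and 0.42 over 7203 genes. Timm8b, Timm10b and Timm13 thus lay below genes of like length, whereas Timm9 and Timm10 lay above them. Grpel1, with a mean length of 3528 bases, was the only lower member above 2500 bases.

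**Figure D4:**
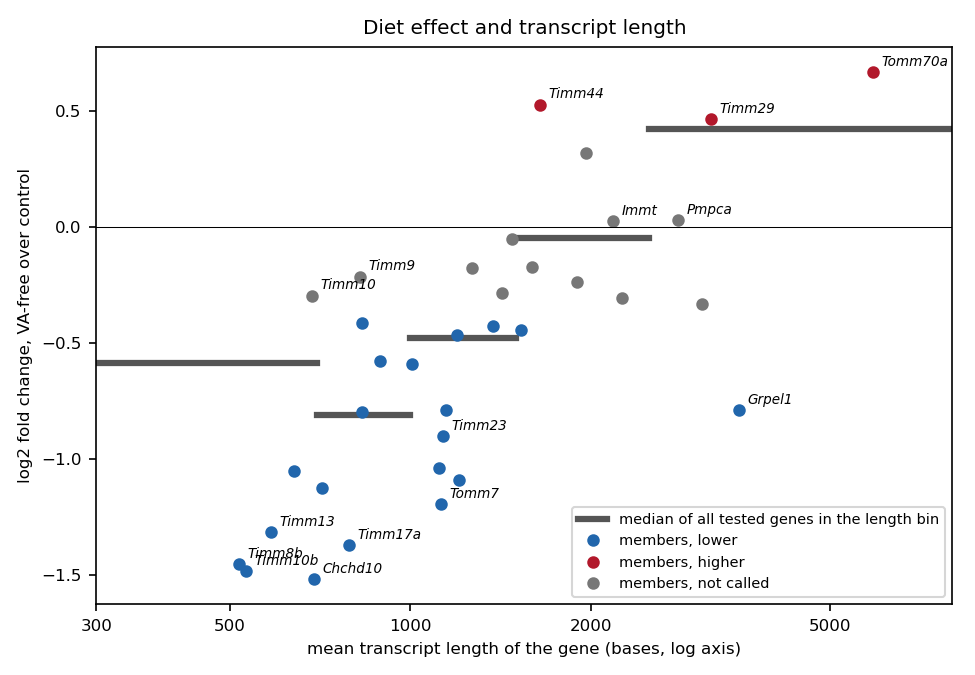
Log2 fold change (y axis, VA-free over control) of the 35 tested members against the mean transcript length of the gene (x axis, bases, log scale), with grey bars for the median of all tested genes in 5 length bins. The 3 lower small TIMs lie below the bars (Timm10b -1.48, Timm8b -1.45, Timm13 -1.32), Timm9 (-0.21) lies above, and Grpel1 lies far below the bar for long genes (0.42).

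The calls were therefore set beside fits that treat length differently. When a loess trend on gene length was taken out mouse by mouse, the median over all genes moved to 0.22 and that of the members to 0.06, a difference of -0.15. Of the 17997 genes, 2374 were lower and 4071 higher in this fit, and of the 35 members 6 were lower and 6 higher. The lower members were Chchd10, Grpel1, Timm10b, Timm13, Timm8b and Tomm7, and the higher members were Phb2, Timm21, Timm44, Timm9, Tomm34 and Tomm40. Of these, Timm21 was called lower in the comparison of counts. With limma on log2(TPM + 1), in which a pseudocount of 1 understates the change of low genes, the median was 0.35 over all genes and -0.09 over the members, a difference of -0.44, and 13 members were lower and 7 higher. Of the genes with a TPM of at least 1 in 2 mice, 2392 were lower and 5866 higher. A lower call in all 3 fits was kept by 5 members, Chchd10, Timm10b, Timm13, Timm8b and Tomm7, and Timm44 alone kept a higher call in all 3. Relative to the median of all genes in its own fit, 29 members lay below in the comparison of counts, 29 with TPM and 22 with the trend removed. Whether length itself is the source of these differences was not tested.

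**Figure D5:**
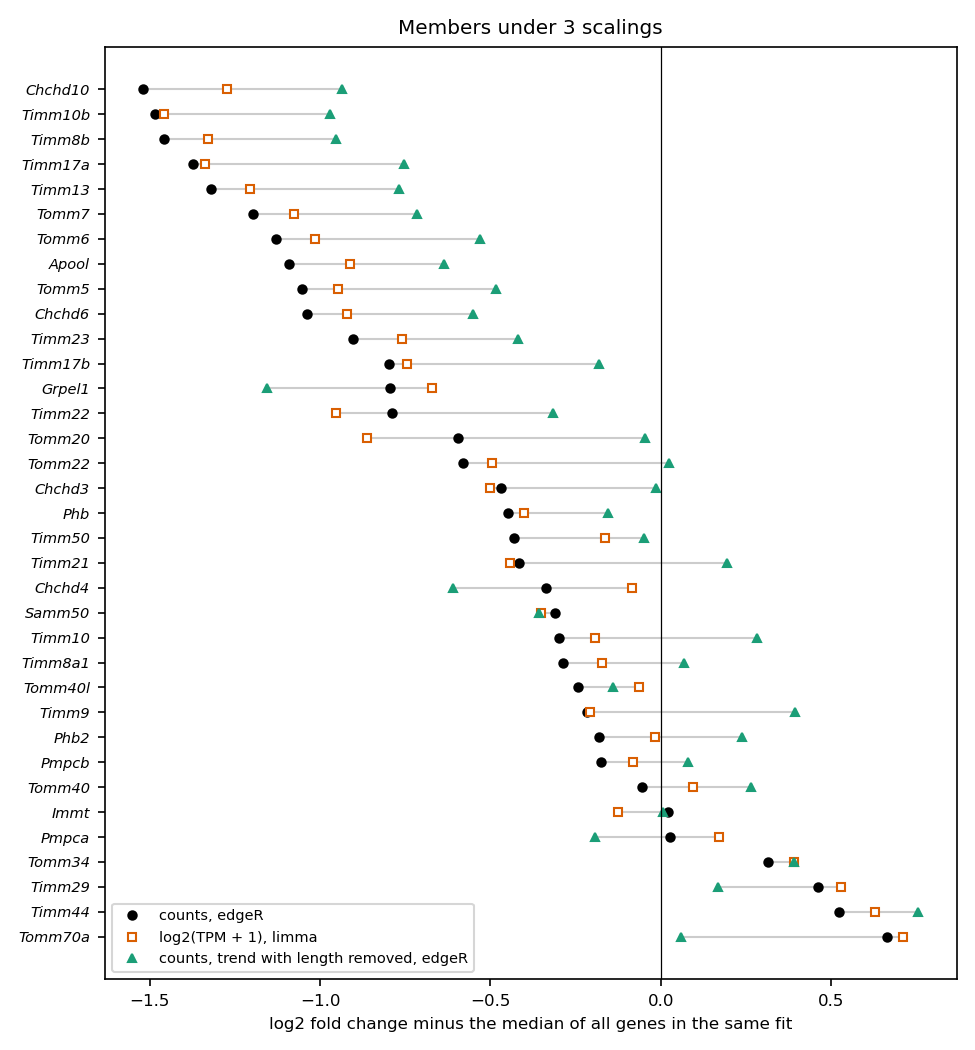
Log2 fold change of each tested member minus the median of all genes in the same fit (x axis) from counts with edgeR, from log2(TPM + 1) with limma, and from counts with the length trend removed. Chchd10, Timm10b, Timm8b, Timm13 and Tomm7 lie left of 0 in all 3, Timm44 lies right of 0 in all 3, and Timm9 and Timm21 are among those that change side when the trend is removed.

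The import and cristae genes outside the name rule were described in the same way, from a list of 31 that included the Hsp70 system of the motor, further peptidases, metaxins, remaining MICOS subunits and inner membrane proteases. Of these, 13 were lower, 6 were higher and 12 did not pass, beside 22.5% lower and 18.9% higher of all genes tested, with a median log2 fold change of -0.36. The split turned to 6 lower and 11 higher with the length trend removed (median 0.014) and to 8 lower and 10 higher with TPM (median 0.039). Over the 17997 genes the first of these fits gave 2374 lower and 4071 higher. The TPM fit, over its own set of genes, gave 2392 lower and 5866 higher. In the comparison of counts the largest falls were in Minos1, a small MICOS subunit (-1.41), Dnajc19, a J protein of the motor (-1.39), Romo1, a small inner membrane protein of the TIM23 complex (-1.29), and Immp1l, an inner membrane peptidase subunit (-1.27). Next were Apoo, the MICOS relative of Apool (-1.24), and Dnajc15, the paralog of Dnajc19 (-1.16). The edgeR adjusted p of these 6 was between 0.000288 and 0.00732. No gene of the list rose past 1. The 6 that were higher were Hspa9, the Hsp70 of the motor, the peptidases Mipep and Xpnpep3, the proteases Afg3l2 and Spg7, and Opa1, the fusion GTPase that also shapes cristae.

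Of the 37 members, 34 matched the table of RefSeq promoters on GRCm38.p6, with 36 promoters. The 300 bases around each start were searched on both strands for motifs of factors known to act on nuclear genes for mitochondrial proteins. The palindromic NRF1 motif was in 5 of the 36 promoters against 4.60% of all 32851, and the ETS motif ACCGGAAG in 6 against 2.30%. The YY1 motif AAGATGGCG was in 1 (1.40% of all), CCAAT in 14 (37.4% of all), and the DR5 motif, a direct repeat of the retinoic acid receptor site, in none (0.00913% of all). For DR5 only the exact letters AGGTCA, repeated 5 bases apart, were searched, and 3 of all promoters held them. At that rate a search of 36 promoters cannot show whether retinoic acid sites are absent. The last 80 bases before the start are shown for a lower member with each of the first 2 motifs and for Tomm70a, which rose and holds an ETS match as Timm8b does, with the matches in capitals.
Timm8b: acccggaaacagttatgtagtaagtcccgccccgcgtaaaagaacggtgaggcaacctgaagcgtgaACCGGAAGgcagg
Tomm20: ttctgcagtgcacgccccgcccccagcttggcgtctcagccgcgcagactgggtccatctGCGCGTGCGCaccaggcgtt
Tomm70a: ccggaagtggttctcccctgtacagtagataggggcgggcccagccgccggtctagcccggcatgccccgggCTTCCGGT
These lie at chr9:50603821-50603900 (plus strand), chr8:126945922-126946001 (minus strand) and chr16:57121634-57121713 (plus strand), upstream of the start in RefSeq. Genes with an NRF1 match were Chchd4, Immt, Phb, Timm8b and Tomm20, of which Chchd4 and Immt did not pass the diet comparison. An ETS match was found for Immt, Phb2, Timm8a2, Timm8b, Tomm22 and Tomm70a, which include lower, higher and uncalled genes. A match is a description of these letters and not a measured binding site.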

How the data were processed

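RNA was measured in 8 libraries of 5 mice. The authors pseudo-aligned 75-base reads to Ensembl 96 transcripts of GRCm38 with kallisto (0.46.2 in the submitters' processing notes) and deposited estimated counts per transcript without normalization. The TPM values deposited beside them are scaled by effective length to the same sum in each library and keep no depth. The transcript lengths and effective lengths in those files were used for the length fits.

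Gene counts were sums over 116816 of the 118489 transcripts, by the GENCODE M21 (Ensembl 96) annotation. Transcripts with no gene there took 0.647% to 0.756% of a library and were dropped. The libraries of a mouse were then summed and rounded. At 44831232 to 88650428 counts per library, counting error is small except for Timm8a2 and Tomm20l. The study's methods name tximport and DESeq2. Here edgeR 4.0.16 in R 4.3.3 (TMM, filterByExpr, quasi-likelihood test, Benjamini-Hochberg adjustment) was the test, and the standard error is the log2 fold change divided by the square root of F. DESeq2 1.42.0, limma 3.58.1 and 25 alternatives in all were run, including log2(TPM + 1) and log2(TPM + 0.1) over genes with a TPM of at least 1 in 2 mice, and a loess trend on log2 length (span 0.3) removed from each mouse. edgeR, DESeq2, limma-voom, limma on log2(TPM + 1) and the removal of the length trend were first run on counts simulated with 1 relative spread for every gene. The simulation held no mouse with divergent libraries, unlike control mouse 2, and did not cover the remaining alternatives. The p-values measure the spread between the summed counts of the mice. The gap between libraries A and B of 1 mouse does not enter them on its own, and VA-free mice 1 and 2 had 1 library each. In the fits without control mouse 1 or 2 a single control mouse is left, so the spread there is that of the VA-free mice alone.

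The members were fixed by symbol, and the lists, roles and markers were written with earlier results of these data known. Each library's value is given for members past the threshold with an absolute log2 fold change of at least 0.5, and in addition for Timm9, Tomm40, Immt and Phb, chosen after their values were seen. Of the other import genes, up to 6 in each direction past an absolute log2 fold change of 1 are named with values.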

Additional observations from a re-analysis of the deposited data

Results flagged for a closer look

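Within a diet, the 4 libraries of each tested member were searched for 1 library far from the rest, by its gap to the nearest library relative to the range of the group. Of 70 groups 11 met this rule, where chance alone gives about 5%, and libraries A and B of a mouse are not independent. Control 2A was the library in 7 of the 11. It was the highest control library for Timm17a (329 CPM, the others 86.9 to 120.1 CPM), Phb (172 CPM, the others 103 to 113 CPM), Chchd3 (73.5 CPM, the others 57.5 to 59.9 CPM), Timm8a1 (61.0 CPM, the others 29.9 to 34.4 CPM) and Apool (27.8 CPM, the others 14.5 to 16.1 CPM). It was the lowest for Pmpcb (65.8 CPM, the others 71.1 to 72.1 CPM) and Tomm40l (14.1 CPM, the others 26.2 to 28.5 CPM). Its partner from the same mouse, control 2B, was the lowest for Timm17b (33.6 CPM, the others 41.9 to 42.9 CPM).

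On the VA-free diet, library 1B was the highest for Immt (179 CPM, the others 161 to 164 CPM) and the lowest for Samm50 (81.8 CPM, the others 88.1 to 89.1 CPM), and library 3A was the highest for Tomm7 (24.3 CPM, the others 20.1 to 20.6 CPM). Without control 2A, 17 members were lower and 3 higher, and without control 2B 15 were lower and 1 higher. Why the libraries of control mouse 2 differ was not tested.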

How the results depend on the processing

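Of the 20 lower members, 14 kept their call in all 11 fits without 1 mouse or library, as did Tomm70a of the 3 higher ones. Chchd3, Phb, Timm21, Timm50, Tomm20 and Tomm22 lost it at least once, as did Timm29 and Timm44. Over these fits the members had 15 to 22 lower calls, 1 to 4 higher calls (1 when any VA-free mouse or control 2B was left out) and medians from -0.69 (control 2B left out) to -0.41. The other import genes had 8 to 15 lower calls, 3 to 6 higher calls and medians from -0.62 to -0.26, and all genes 1613 to 3678 higher calls, 2863 to 4066 lower calls and medians from -0.053 to 0.035. Among the fits that kept both control mice, calls were gained without control 1B by Chchd4 and Samm50 (lower) and Tomm34 (higher), and without 2A by Tomm40l (lower). The fits without control mouse 1 or 2 left a single control mouse, so calls in them rest on the spread of the VA-free mice alone. Uncalled members that changed sign were Pmpca (-0.28 to 0.27), Immt (-0.11 to 0.076), Chchd4 (-0.74 to 0.049) and Timm10 (-0.56 to 0.016). DESeq2, limma-voom, RLE factors and no filter changed no call of a member. What depth limits is Timm8a2 and Tomm20l, which were too low to test.

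With the length trend removed, members had 6 lower and 6 higher calls with a median of 0.061, and the other import genes 6 lower, 11 higher and 0.014. All genes had 2374 lower and 4071 higher calls and a median of 0.22. Members whose sign turned were Chchd3 (0.20), Phb (0.061), Phb2 (0.46), Pmpcb (0.30), Timm10 (0.50), Timm17b (0.034), Timm21 (0.41), Timm50 (0.17), Timm8a1 (0.28), Timm9 (0.61), Tomm20 (0.17), Tomm22 (0.24), Tomm40 (0.48) and Tomm40l (0.075), of which Phb2, Timm21, Timm9 and Tomm40 were past the threshold. With log2(TPM + 1) members had 13 lower and 7 higher calls with a median of -0.094, the other import genes 8, 10 and 0.039, and all genes 2392, 5866 and 0.35. With log2(TPM + 0.1) these were 13, 7 and -0.095, then 8, 10 and 0.040, then 2347, 5837 and 0.40. Signs turned, at pseudocounts of 1 and 0.1, for Chchd4 (0.26 and 0.28), Phb2 (0.33 and 0.33), Pmpcb (0.27 and 0.27), Timm10 (0.16 and 0.16), Timm50 (0.18 and 0.19), Timm8a1 (0.18 and 0.18), Timm9 (0.14 and 0.14), Tomm40 (0.44 and 0.45) and Tomm40l (0.29 and 0.30), of which Phb2 and Tomm40 passed. Relative to the median of all genes with log2(TPM + 1), of these only Tomm40 lay above, at 0.095, and the rest lay between -0.21 and -0.017. With the length trend removed, Chchd3, Phb, Timm17b, Timm50, Tomm20 and Tomm40l lay below the median of all genes (-0.18 to -0.013). The others whose sign turned there lay above it (0.025 to 0.39). The cause of these changes was not tested.

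The member median was -0.52 above a mean of 10 CPM, -0.55 with the effective-length offset, -0.50 with protein-coding transcripts only and -0.67 with 1 library per mouse, and that of the other import genes -0.42, -0.44 (offset), -0.45 (8 libraries as separate samples) and -0.56 (1 library per mouse, with 1 higher call among members and 2156 among all genes). The fit with 1 library per mouse kept 2A of control mouse 2, and the member median without control 2B was -0.69. With protein-coding transcripts only, 2 members lost a call and 1 gained one. With the effective-length offset, Samm50 gained a lower call (-0.45) and Timm50 lost its lower call (-0.27). Immt and Pmpca turned to -0.0092 and -0.010 with upper-quartile factors, -0.057 and -0.055 above 10 CPM, -0.015 and -0.016 with 8 libraries and -0.063 and -0.28 with 1 library per mouse, and with the offset Immt was at -0.22 and Tomm40 at 0.010. The replicate numbers did not pair the mice: deviations of equally numbered mice from their diet means correlated at -0.065 and 0.010 over genes. With the replicate number as a block, members had 14 lower and 1 higher calls and a median of -0.49, the other import genes 8 and 2, and all genes 2903 and 2339.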
